A study of Mus musculus with 6 samples.

Results

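The 9 genes described here belong to the Nodal signaling pathway: the ligand Nodal, its co-receptor Tdgf1, the receptor Acvr2b, the inhibitors Lefty1, Lefty2 and Cer1, and the effectors Smad2, Smad3 and Foxh1. They were found as every probe set whose only gene symbol in the array annotation was 1 of these 9, which gave 18 probe sets of 45037, or 9 genes of 18193. They were measured in A2.Snail cells, a mouse ESC line carrying a Snail transgene under doxycycline (dox) control, grown as embryoid bodies in serum with DKK, an inhibitor of Wnt signaling. The DKK + dox cultures received dox at 250 ng/mL at day 2 and the DKK cultures received none. RNA was taken after 6, 12 and 24 hours (days 2.25, 2.5 and 3) and hybridised to 6 Affymetrix arrays, 1 for each condition and time. All 6 arrays therefore come from the same Snail-inducible line under Wnt inhibition. No array had dox without the transgene, so Snail and dox itself cannot be told apart, and whether the line is a single clone is not given in the sources used here.

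Nodal is a secreted TGF-beta family ligand of the early embryo. It binds activin receptors together with the co-receptor Cripto, encoded by Tdgf1, and the receptors phosphorylate Smad2 and Smad3, which act on chromatin with Smad4 and the forkhead factor Foxh1. In the mouse epiblast the pathway helps to keep cells pluripotent and later patterns the primitive streak and endoderm, and it switches on its own inhibitors Lefty1 and Lefty2 as well as Nodal itself.

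The values are linear intensities that the authors normalized with dChip, with a median of 53.6 to 63.7 per array. An intensity of 37.2, the 40th percentile of all values, served as the low-signal limit, and 37.5 to 41.3 percent of the probe sets on each array lay at or under it. Cdh1, the E-cadherin gene that Snail represses, read 3465, 2868 and 3063 in DKK + dox and 4481, 5957 and 6222 in DKK at 6, 12 and 24 hours. The probe set of Snai1 read at most 29.6 in DKK + dox and 32.9 in DKK, under the limit throughout, so it does not check the labels. The pluripotency gene Pou5f1 (Oct4) read between 5672 and 6675 in DKK + dox and between 6046 and 6764 in DKK. In bulk RNA, fewer cells expressing a gene and less of its RNA per cell cannot be told apart.

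Of the 9 genes, 2 rose and 2 fell with dox, by small amounts, and 5 did not pass the test. Each difference is the log2(intensity + 20.6) of DKK + dox less that of DKK, a scale that understates the change of low genes. No gene of the 9 differed by 2-fold or more at any time. Their differences ranged from -0.43 to 0.15 at 6 hours, from -0.39 to 0.29 at 12 hours and from -0.65 to 0.46 at 24 hours. The median size of the difference, regardless of sign, was 0.09, 0.11 and 0.39 at the 3 times, against 0.13, 0.20 and 0.24 over all 14755 genes tested. Among those genes, the share that was at least 2-fold higher was 0.271, 1.27 and 3.12 percent at 6, 12 and 24 hours, and the share at least 2-fold lower was 0.468, 2.25 and 2.2 percent. At 1.5-fold, Foxh1 at 24 hours was the 1 difference counted among the 9 genes, in a background of 7.18 percent lower and 8.99 percent higher.

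With 1 array per condition, no time can be tested alone, so the test used all 6 arrays. In limma, the difference was taken to be in proportion to the time since dox, and the test asked whether that trend departed from flat. Each time point was its own block, and the fitted value is that of the trend at 24 hours. No difference was allowed at the time of dox itself, so a pass does not by itself show that a difference grew. Lefty1 and Smad2 rose and Nodal and Foxh1 fell at an adjusted p under 0.05, while Tdgf1, Acvr2b, Lefty2, Cer1 and Smad3 did not pass. Of all genes tested, 8.32 percent rose and 6.38 percent fell. A count of 2 of 9 in each direction is too small to be read against these shares. The p-values rest on how far 6 arrays depart from a trend and hold no information on how replicate cultures vary. When the difference was instead held constant over the 3 times, none of the 9 genes passed, and none of the 14755 did (lowest adjusted p = 0.0516 from limma, with 2927 genes at an unadjusted p under 0.05).

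**Figure D1:**
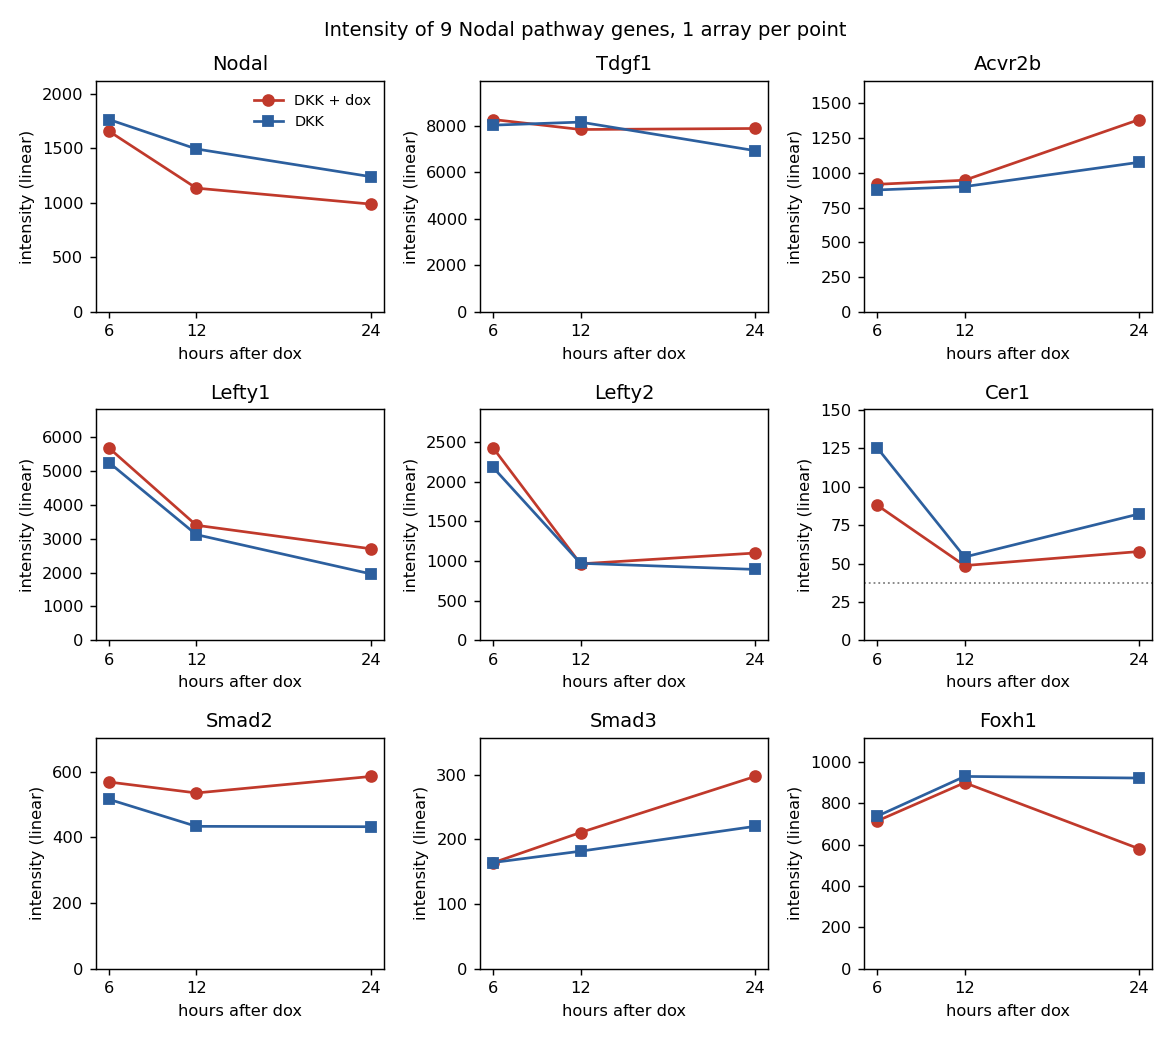
Linear intensity against hours after dox for the probe set used for each of the 9 genes, with DKK + dox in red circles, DKK in blue squares and 1 array per point; the dotted line in the panel of Cer1 is the low-signal limit of 37.2. Nodal lies lower with dox at the 3 times, and Foxh1 separates at 24 hours, at 580 with dox and 922 without.

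The ligand Nodal fell. Its intensity was 1658, 1136 and 989 in DKK + dox at 6, 12 and 24 hours, against 1766, 1495 and 1241 in DKK. The level declined with time in both conditions, and that of DKK + dox was below that of DKK at each time, at 93.9, 76.0 and 79.7 percent of it. On the log2 scale the differences were -0.09, -0.39 and -0.32, so the gap was open by 12 hours and no wider at 24 hours. The fitted difference was -0.41 (standard error 0.11, adjusted p = 0.0413 from limma). A second probe set of Nodal read 821, 470 and 438 in DKK + dox and 913, 759 and 586 in DKK. It was lower with dox at the 3 times as well, with its lowest ratio of 61.9 percent at 12 hours, but narrowly missed the threshold when all probe sets were fitted together (fitted difference -0.59, adjusted p = 0.0596 from limma). Nodal did not pass without the pair of arrays at 6, 12 or 24 hours, at an adjusted p from limma of 0.102, 0.0658 and 0.0699. Its fitted difference was then -0.41, -0.32 and -0.70. These fits use fewer arrays, and fewer of all genes passed in them, at 1326, 1706 and 728 against 2168. The loss of the call therefore does not show what each time contributes.

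Promoters from RefSeq, assembly GRCm38.p6, were available for 5 of the 9 genes, and those of Nodal, Tdgf1 and Cer1 are shown because they differ in the E-box CACCTG, a sequence bound by Snail proteins. Each window runs 5′ to 3′ on the gene's own strand over 300 bases, from 250 before to 50 after the start, and capitals mark each E-box on either strand (CACCTG or CAGGTG). The windows are chr10:61417722-61418021 on the plus strand for Nodal, chr9:110946109-110946408 on the minus strand for Tdgf1 and chr4:82885102-82885401 on the minus strand for Cer1.
Nodal: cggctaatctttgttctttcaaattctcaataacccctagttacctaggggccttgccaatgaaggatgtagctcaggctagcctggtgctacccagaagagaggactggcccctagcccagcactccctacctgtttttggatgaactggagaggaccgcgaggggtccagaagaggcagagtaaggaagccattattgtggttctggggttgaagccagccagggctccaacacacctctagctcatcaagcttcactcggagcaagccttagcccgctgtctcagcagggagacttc
Tdgf1: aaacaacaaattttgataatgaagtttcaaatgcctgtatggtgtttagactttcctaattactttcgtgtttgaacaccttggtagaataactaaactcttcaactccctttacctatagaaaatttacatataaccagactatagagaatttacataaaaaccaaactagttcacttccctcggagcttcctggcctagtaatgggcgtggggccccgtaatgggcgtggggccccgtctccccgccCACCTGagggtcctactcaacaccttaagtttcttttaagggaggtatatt
Cer1: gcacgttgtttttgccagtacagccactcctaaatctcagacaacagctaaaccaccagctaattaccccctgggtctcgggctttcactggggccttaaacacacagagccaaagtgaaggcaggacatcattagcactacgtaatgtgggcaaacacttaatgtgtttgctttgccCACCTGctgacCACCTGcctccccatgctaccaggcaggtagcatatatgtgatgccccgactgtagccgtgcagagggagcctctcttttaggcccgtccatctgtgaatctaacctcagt
The Cer1 window held 2 E-boxes, which begin 72 and 61 bases before the start, and the Tdgf1 window held 1, which begins 1 base before it. The windows of Nodal, Acvr2b and Smad3 held none. Of 32851 promoters of this length, 20.2 percent held at least 1. AATNNACA, a form of the site that FOXH1 binds, occurred 2 times in the Tdgf1 window and in 12.2 percent of all promoters on either strand. It was in none of the other 4 windows. A match is only a run of letters, and its absence from a window says nothing of sites elsewhere. Lefty1, Lefty2 and Foxh1 had no entry in the promoter table, and the promoter of Smad2 was not used here.

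The co-receptor and the receptor did not pass. Tdgf1, which encodes Cripto, read 8270, 7840 and 7883 in DKK + dox and 8027, 8159 and 6930 in DKK. The conditions overlapped, with dox lower at 12 hours and higher at 6 and 24 hours (differences 0.04, -0.06 and 0.19; fitted difference 0.13, 95 percent interval -0.02 to 0.27, adjusted p = 0.225 from limma). Acvr2b, a type II receptor for activin and Nodal, read 918, 947 and 1384 in DKK + dox and 877, 901 and 1076 in DKK. It was the highest of all 6 arrays in DKK + dox at 24 hours, where the difference was 0.36 after 0.06 and 0.07 (fitted difference 0.31, standard error 0.10, adjusted p = 0.0757 from limma). Its other probe sets lay close to 0 at 24 hours, with differences of 0.10 and 0.06, and neither passed.

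Of the 3 inhibitors, 1 rose and the others did not pass, where 8.32 percent of all genes tested rose. A count of 1 of 3 is too small to be read against that share, and differences between the 3 genes were not tested. Lefty1, a secreted antagonist that the pathway induces, rose: it read 5678, 3396 and 2702 in DKK + dox and 5248, 3120 and 1959 in DKK. The level dropped steeply with time in both conditions and stayed higher with dox at each time, by 0.11, 0.12 and 0.46 on the log2 scale. The fitted difference was 0.42 (standard error 0.07, adjusted p = 0.00885 from limma). At 24 hours the level was 47.6 percent of that at 6 hours in DKK + dox and 37.3 percent in DKK. Lefty1 passed without the 6 hour or the 12 hour pair, but not without the 24 hour pair (adjusted p = 0.21 from limma).

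Lefty2, its close relative with the same antagonist role, read 2425, 964 and 1100 in DKK + dox and 2179, 971 and 894 in DKK. The conditions were nearly equal at 12 hours and dox was higher at the other times (differences 0.15, -0.01 and 0.29; fitted difference 0.25, standard error 0.10, adjusted p = 0.149 from limma). The whole decline of Lefty2 in DKK + dox, and most of it in DKK, lay between 6 and 12 hours, with log2 changes of -1.31 in DKK + dox and -1.15 in DKK. Between 6 and 24 hours the log2 change of Lefty1 was -1.07 in DKK + dox and -1.41 in DKK, and that of Lefty2 was -1.13 in DKK + dox and -1.27 in DKK. These changes with time were larger than any difference between DKK + dox and DKK among the 9 genes. Lefty1 and Lefty2 were the 2 of the 9 genes whose level at least halved over these hours in each condition, as it did in 3.72 percent of all genes tested in DKK + dox and 4.26 percent in DKK. The summed intensity of 10 markers of naive ESCs was lower over the same hours, at 8507, 1875 and 1416 in DKK + dox and 8919, 2214 and 1376 in DKK. Zfp42 was the largest part of the 6 hour sums, at 4237 in DKK + dox and 4141 in DKK. Not every marker declined from 6 to 24 hours: Esrrb read 278 and 316 in DKK + dox, and Tbx3 136 and 149 in DKK. The part of these markers in the decline of the Lefty genes was not tested, and each time is 1 array in each condition.

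Cer1, a secreted antagonist of Nodal and BMP made in mouse by anterior visceral endoderm and by early endoderm, gave a weak signal. It read 88.0, 48.7 and 57.9 in DKK + dox and 125, 54.3 and 82.4 in DKK. Dox was lower at each time, by -0.43, -0.11 and -0.39, while the ranges overlapped (fitted difference -0.42, 95 percent interval -0.97 to 0.12, adjusted p = 0.287 from limma). Its other probe set stayed under the low-signal limit on all 6 arrays. Of 12 markers of visceral endoderm, 8 or 9 were above the limit on each array. Their summed intensity ranged from 998 to 1750 in DKK + dox and from 755 to 1840 in DKK, and the defining marker Afp was under the limit on every array. Of the 9 visceral endoderm markers tested, Dab2 rose and the other 8 did not pass, where 8.32 percent of all genes tested rose. Dab2 was named after its value was seen (fitted difference 1.31, adjusted p = 0.00419 from limma). The part of these markers in the level of Cer1 was not tested.

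The effectors differed from each other. Smad2, which carries the signal from the receptors to the nucleus, rose: it read 568, 535 and 585 in DKK + dox and 516, 433 and 432 in DKK. All 3 values with dox were above all 3 values without, and the differences widened with time at 0.14, 0.29 and 0.42 (fitted difference 0.46, standard error 0.12, adjusted p = 0.0414 from limma). A second probe set read 243, 241 and 238 in DKK + dox and 216, 199 and 157 in DKK, again without overlap. Its fitted difference was larger at 0.54 and just missed the threshold with all probe sets fitted together (adjusted p = 0.0542 from limma). Smad2 did not pass without any pair of arrays, at an adjusted p from limma of 0.112, 0.0799 and 0.216 without the 6, 12 and 24 hour pair.

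Smad3, the other receptor-activated Smad of the pathway, read 164, 211 and 297 in DKK + dox and 164, 182 and 220 in DKK. The level climbed with time in both conditions, and the difference grew with it at -0.0024, 0.19 and 0.40 (fitted difference 0.38, standard error 0.16, adjusted p = 0.162 from limma). Its probe sets disagreed at 24 hours. One, with signals of 47.5 to 86.7 in DKK + dox and 53.7 to 100.2 in DKK, was at -0.37, and another was under the limit on every array, so the direction for Smad3 rests on the brightest.

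Foxh1, the forkhead partner of Smad2 and Smad3, fell, and late. It read 715, 900 and 580 in DKK + dox and 738, 930 and 922 in DKK. The conditions ran side by side at 6 and 12 hours, with differences of -0.04 and -0.05, and parted at 24 hours, where dox stood at 62.9 percent of DKK, a difference of -0.65. This was the largest difference at 24 hours among the 9 genes. The fitted difference was -0.52 (standard error 0.13, adjusted p = 0.0374 from limma). The 2 other probe sets of Foxh1 gave negative differences throughout, of -0.50 and -0.39 at 24 hours, and neither passed (adjusted p = 0.114 and 0.136 from limma with all probe sets fitted together). Foxh1 did not pass without the 24 hour pair, with a fitted difference of -0.11 (adjusted p = 0.804 from limma), nor without the 6 hour pair (adjusted p = 0.0739).

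**Figure D2:**
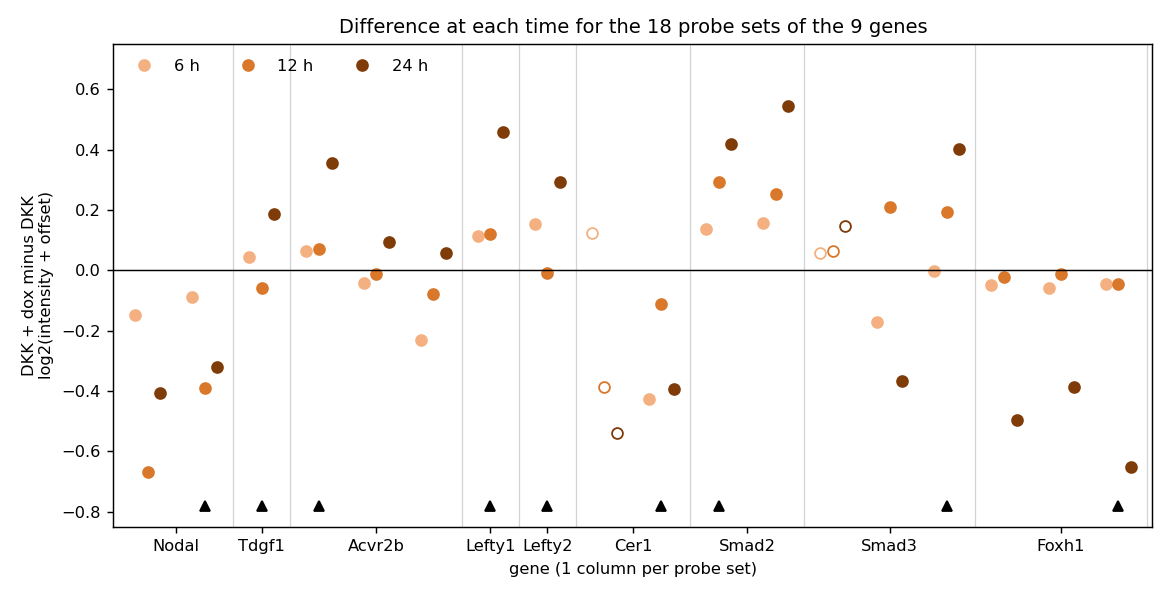
DKK + dox minus DKK in log2 units for the 18 probe sets, 1 column each, at 6, 12 and 24 hours (light to dark orange); open points are probe sets under the low-signal limit on every array, and triangles mark the probe set used for each gene. Both columns of Nodal and all 3 of Foxh1 lie under 0, both of Smad2 lie above it, and those of Smad3, Cer1 and Acvr2b hold points on both sides.

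Across the probe sets, 16 of 18 were above the low-signal limit on all 6 arrays. Fitted together with all others, 2 of them rose and 2 fell, 1 for each gene that passed, in a background of 6.81 percent that rose and 5.12 percent that fell. The sign was the same at the 3 times in every probe set of Nodal, Lefty1, Smad2 and Foxh1. By gene, 3 of the 9 (Nodal, Cer1 and Foxh1) were lower with dox at all 3 times, 3 (Acvr2b, Lefty1 and Smad2) were higher at all 3, and 3 changed sign. Of all genes tested, 21.9 percent were lower and 21.5 percent higher at all 3 times.

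Of 34 further pathway genes, 31 were measured by a probe set of their own and 30 were tested. Of these, 5 rose, 4 fell and 21 did not pass, against 8.32 percent that rose and 6.38 percent that fell over all genes tested. Gsc, among those that rose, entered the test only through its DKK + dox arrays. The median fitted difference of the 30 was 0.01, the same as that of all genes tested at 0.01, and that of the 9 genes was 0.25. Among ligands and processing enzymes, 1 of 7 fell. This was Gdf3, a Nodal-related ligand of pluripotent cells, which read 1549, 825 and 441 in DKK + dox and 1802, 1482 and 931 in DKK. The gap widened with time and the fitted difference of -1.15 (standard error 0.13, adjusted p = 0.00255 from limma) was larger than that of Nodal. The extremes of this group were Gdf3 and Pcsk5, a proprotein convertase, at 1.12 (adjusted p = 0.154 from limma), whose probe sets were mostly near or under the limit.

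Of the 3 receptors and co-receptors tested, 2 rose, where 8.32 percent of all genes tested rose. The count is too small to be read against that share. Acvr1b (Alk4), the type I receptor that Nodal uses, read 641, 868 and 1038 in DKK + dox and 575, 593 and 693 in DKK (fitted difference 0.67, adjusted p = 0.0145 from limma). Acvr2a, a type II receptor like Acvr2b, read 251, 426 and 461 in DKK + dox and 234, 334 and 277 in DKK (fitted difference 0.68, adjusted p = 0.0185 from limma). Both were higher with dox at each time, but neither passed without the 24 hour pair. A dimmer probe set of Acvr1b was lower with dox throughout, by -0.26, -0.25 and -0.24, and neither receptor passed with the mean of all probe sets. The co-receptor Cfc1 (Cryptic) had a fitted difference of -0.36 (adjusted p = 0.346 from limma).

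Of 9 inhibitors and feedback genes, 2 fell, where 6.38 percent of all genes tested fell, and this count is also too small to be read against the share. Fst, which encodes the activin-binding protein follistatin, read 204, 183 and 263 in DKK + dox and 219, 371 and 436 in DKK (fitted difference -0.90, adjusted p = 0.0381 from limma). Pmepa1, a TGF-beta-induced gene whose product restrains Smad signaling, read 304, 370 and 401 in DKK + dox and 339, 537 and 567 in DKK (fitted difference -0.59, adjusted p = 0.0367 from limma). The 2 other probe sets of Pmepa1 were higher with dox at 24 hours, by 0.23 and 0.16. A dimmer probe set of Fst did not pass with all probe sets fitted together (fitted difference -0.68, adjusted p = 0.0858 from limma). The highest fitted difference of this group was 0.28 for Smurf2, a ubiquitin ligase (adjusted p = 0.132 from limma). Of the other effectors, Trim33 (Tif1-gamma), which binds activated Smad2 and Smad3, fell by 0.69 in the fit (adjusted p = 0.0166 from limma), and Smad4 had a fitted difference of 0.20 and did not pass (adjusted p = 0.132 from limma). A dimmer probe set of Trim33 did not pass with all probe sets fitted together (fitted difference -0.51, adjusted p = 0.199 from limma), and another was under the limit on every array. Fst, Pmepa1 and Trim33 did not pass with the mean of all probe sets. Fst and Pmepa1 also did not pass without the 6 hour pair or without the 24 hour pair, nor did Pmepa1 without the 12 hour pair.

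Of 9 target genes tested, 3 rose and none fell, in the background of 8.32 percent that rose and 6.38 percent that fell. Gsc entered the test only through its DKK + dox arrays, and without it 2 of 8 rose. Gsc, a homeobox gene of the organizer, read 43.1, 141 and 132 in DKK + dox and 8.48, 21.6 and 21.9 in DKK, all under the low-signal limit without dox. It was at least 2.01-fold higher in DKK + dox. This bound is from the means on the log2(intensity + 20.6) scale, with the limit of 37.2 in place of each DKK value. The adjusted p of 0.0112 from limma is that of the trend fit on the DKK values themselves, so it does not test the bound. Sox17, an endoderm transcription factor that also marks early endothelium, read 239, 142 and 393 in DKK + dox and 307, 97.3 and 79.9 in DKK (fitted difference 1.67, adjusted p = 0.018 from limma). That probe set is of a type that can cross-hybridise with other transcripts. A dimmer probe set of Sox17 had a fitted difference of 0.90 and did not pass (adjusted p = 0.0933 from limma). Sox17 also did not pass without the 24 hour pair. None of its probe sets is of the plain type, so the setting with plain probe sets only did not test it. Hhex, which marks anterior endoderm and blood and endothelial progenitors, read 211, 215 and 450 in DKK + dox and 219, 166 and 163 in DKK (fitted difference 1.16, adjusted p = 0.0129 from limma). Hhex did not pass without the 24 hour pair. For Sox17 and Hhex the condition with dox was the lower at 6 hours and the higher at 12 and 24 hours. Eomes, a T-box gene of the streak and endoderm named after its values were seen, read 106, 122 and 588 in DKK + dox and 121, 133 and 188 in DKK. The conditions parted at 24 hours. Its fitted difference of 1.10 missed the threshold (adjusted p = 0.0655 from limma), while its second probe set passed with all probe sets fitted together (fitted difference 1.30, adjusted p = 0.0271 from limma). The lowest fitted difference was that of Fgf8, a growth factor of the streak, at -1.15 (adjusted p = 0.157 from limma), with 3 of its 6 values above the limit. Of 10 markers of parietal endoderm, 4 rose beside these targets (Sparc, Col4a1, Col4a2 and Sox7, named after their values were seen) and none fell. The other 6 did not pass, with fitted differences from -0.50 (Lamc1) to 0.87 (Plat). The summed intensity of the 10 markers was 6446, 4689 and 6642 in DKK + dox and 6771, 4375 and 3795 in DKK. Their part in the target genes was not tested.

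**Figure D3:**
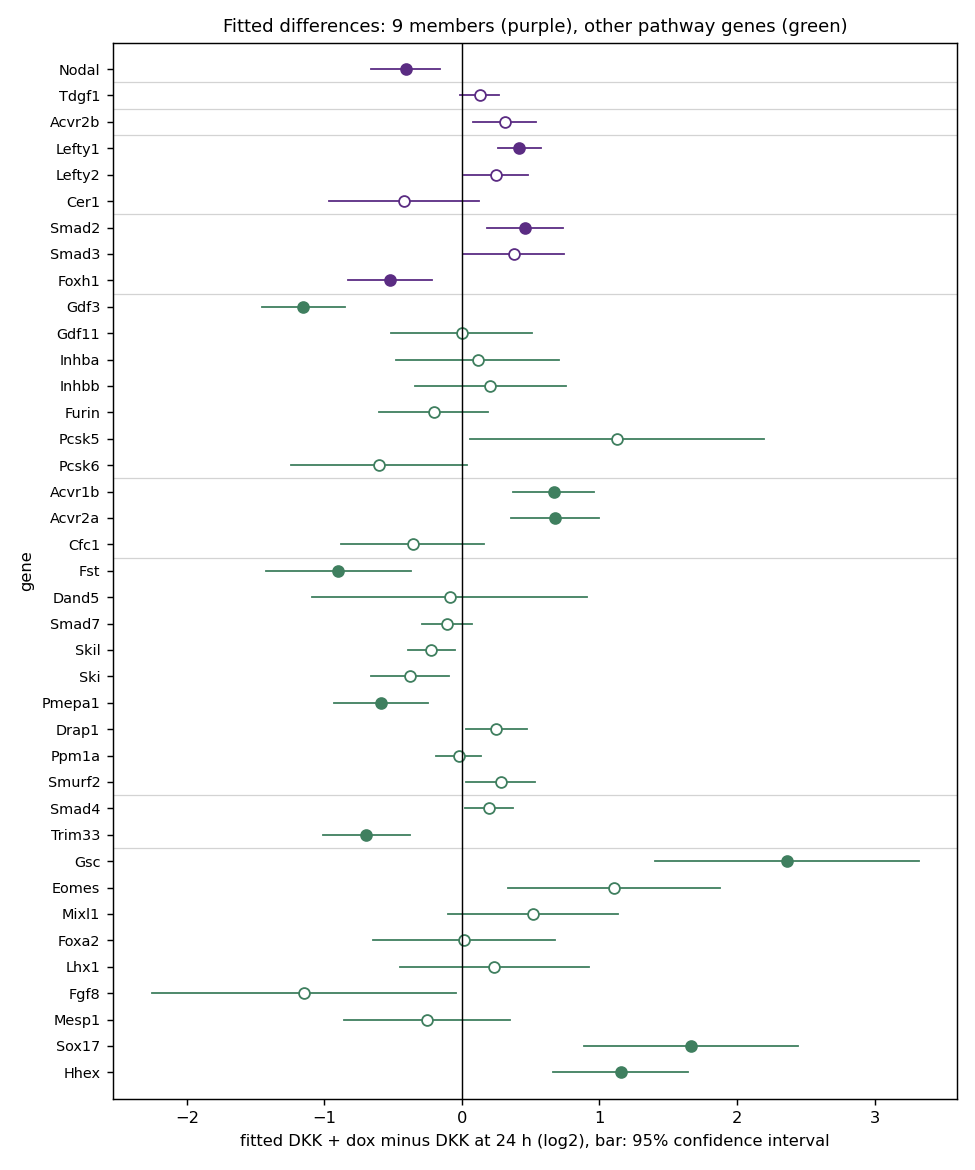
Fitted DKK + dox minus DKK difference at 24 hours in log2 units with its 95 percent confidence interval for the 9 genes (purple) and 30 other genes of the pathway (green), grouped by role; filled points have an adjusted p under 0.05 from limma. Nodal (-0.41) and Gdf3 (-1.15) lie to the left among ligands, while the targets Sox17 (1.67) and Hhex (1.16) lie to the right; the point of Gsc has no exact size, since its DKK values are under the low-signal limit.

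The 9 genes were also set beside markers of cell state. Of 8 markers of the epiblast, the stage at which Nodal signaling is active, 6 fell and none rose, with a median fitted difference of -0.73, against 6.38 percent that fell and 8.32 percent that rose over all genes tested. The paper had already named Zic5, which fell, and Otx2, which did not pass, as inhibited by Snail on these arrays. The list is thus not independent of these data, and its count is not read against those shares. Their summed intensity was 16744, 19211 and 20585 in DKK + dox and 19699, 25769 and 28021 in DKK. Of 9 naive ESC markers tested, Nr0b1 fell (named after its value was seen) and 8 did not pass, and of the 3 core pluripotency genes Sox2 fell and Pou5f1 and Nanog did not pass. Nodal fell beside the epiblast markers, whose part in its fall was not tested. Feeder fibroblast markers, listed because the ESCs had been kept on feeder layers, had summed intensities of 476 to 577 in DKK + dox and 384 to 731 in DKK, and 1 of 6 tested, Fbln2, rose (named after its value was seen).

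The 5 genes with the profile most like that of Nodal over the 6 arrays were Mrpl1, a mitochondrial ribosomal protein gene, Pigl, an enzyme of GPI anchor synthesis, Slco4c1, an organic anion transporter, Slc25a40, a mitochondrial carrier, and Mael, a germ cell gene. Their Pearson correlations with Nodal on the log2 scale were between 0.993 and 0.998. Mrpl1 read 903, 613 and 553 in DKK + dox and 948, 811 and 696 in DKK. The 6 arrays share 3 times and 2 conditions, and the correlations are given as a description. Among the 9 genes, the 3 correlations of largest size over the 6 arrays were 0.95 for Acvr2b and Smad3, -0.95 for Smad3 and Nodal and 0.90 for Lefty1 and Lefty2, again as a description.

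**Figure D4:**
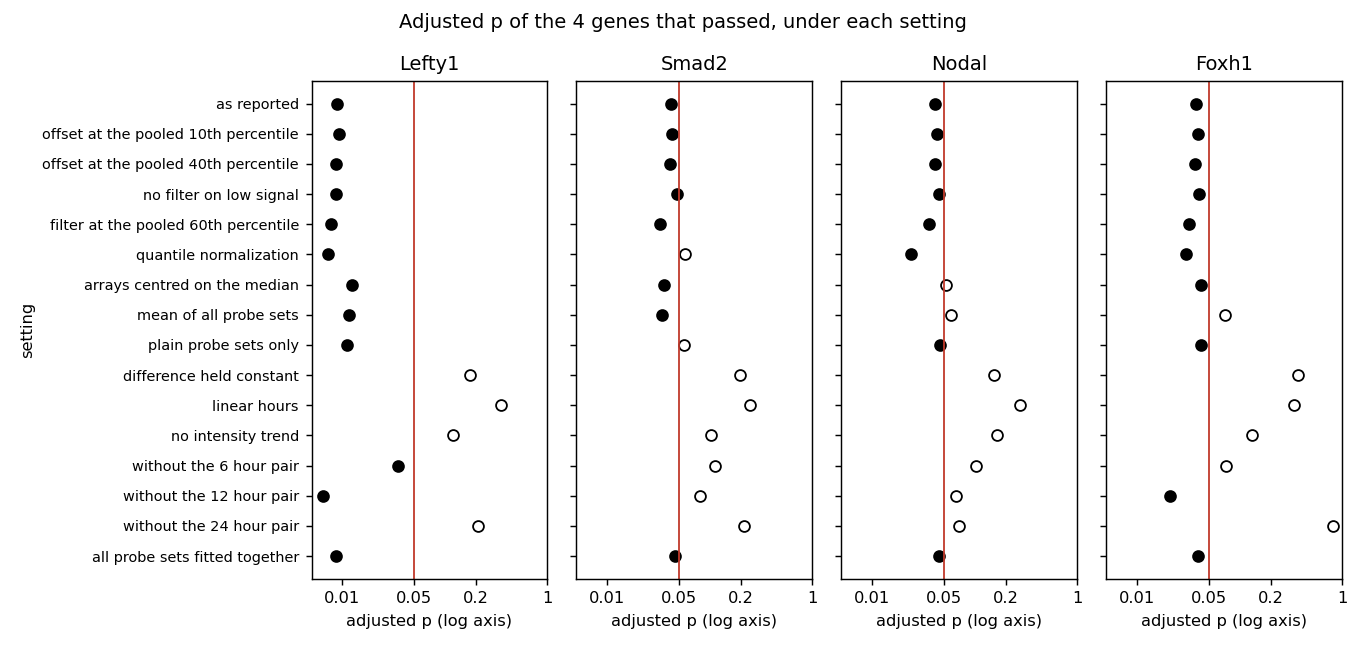
Adjusted p from limma on a log axis for Lefty1, Smad2, Nodal and Foxh1 as reported and under 15 alternative settings, with the threshold of 0.05 as a red line and filled points under it. The points of Smad2, Nodal and Foxh1 lie close to the line as reported, and those of all 4 genes cross it with the difference held constant, with linear hours, without the intensity trend and without the 24 hour pair.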

How the data were processed

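Total RNA of A2.Snail embryoid bodies was hybridised to Affymetrix MOE430_2.0 arrays, and the arrays were normalized and modeled by the authors with dChip (version and model form: not given in the sources used here). Deposited intensities are on a linear scale and never under 1, and the number of arrays limits their precision.

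The platform annotation named the probe sets: 34945 carried 1 symbol, of which 34741 matched RefSeq genes of GRCm38.p6 by Entrez ID and 0 symbols changed. Another 932 carried several symbols, none of them a member, and 9160 had none listed. A gene was read from whichever of its probe sets had the highest mean. The filter on low signal removed 3438 genes that never exceeded the pooled 40th percentile, and the log2 offset was the pooled 25th percentile.

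limma 3.58.1 in R 4.3.3 fitted 4 coefficients to 6 arrays, leaving 2 residual degrees of freedom (eBayes, trend on intensity, prior degrees of freedom 5.5), and Benjamini-Hochberg adjustment of two-sided p-values ran over the 14755 genes tested. A second fit took all 26362 probe sets with 1 symbol that passed the filter. Tested on simulated data, in which 200 of 14755 genes followed the trend, the fit found 82 percent of log2 changes of 1 and 100 percent of log2 changes of 2, and made 15 false calls. The simulation had fewer changed genes than passed here. Its changes followed the trend exactly and were larger than any fitted difference among the members, so recovery at their size was not shown.

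The genes named are the 9 members, the genes of each pathway list that passed and its lowest and highest fitted difference, and the 5 most like Nodal. Another 3, Snai1, Cdh1 and Pou5f1, were chosen to check the labels, though the signal of Snai1 was too low to do so. The members and lists were chosen with earlier results of these data known. Alternatives in offset, filter, normalization, probe set, model and times used are in the closing section. Python 3.11.15 with matplotlib 3.10.9 drew the figures. Other data of the study were not analysed here.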

Additional observations from a re-analysis of the deposited data

Results flagged for a closer look

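Of the 9 genes, 3 had differences (DKK + dox minus DKK, log2 units) of opposite sign at different times. Each value compares 2 arrays, and the difference between times was not tested. Tdgf1 was at -0.057 at 12 hours and 0.19 at 24 hours. Lefty2 was at -0.0096 at 12 hours and 0.29 at 24 hours. Smad3 was at -0.0024 at 6 hours and 0.40 at 24 hours. The negative values of all 3 genes were smaller in size than the median over all genes tested at that time (0.13 at 6 hours and 0.20 at 12 hours).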

How the results depend on the processing

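Alternatives were applied in turn to the fitted differences and to the counts of genes that passed, which were 2 up and 2 down among the 9 genes and 5 up and 4 down among the 30 other pathway genes. Each of the 9 fitted differences kept its sign under all 15 alternatives, except that of Tdgf1, which was -0.057 without the 24 hour pair. In part this was fixed in advance. Either change of filter, linear hours, no intensity trend and all probe sets fitted together leave the fitted difference itself unchanged. They alter only its standard error and adjusted p. The settings on probe sets also leave it unchanged where they read the same probe set. Lefty1 passed under 11 of the 15 alternatives (adjusted p from limma 0.00643 to 0.355), Foxh1 under 9 (0.021 to 0.804), Nodal under 7 (0.0238 to 0.279) and Smad2 under 7 (0.0326 to 0.249). The other 5 genes passed under none, their lowest adjusted p being 0.0526, for Tdgf1.

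With the difference held constant, 0 of the 9 genes rose and 0 fell, as did 0 and 0 of the others, and no gene of the array passed. With linear hours 0 rose and 0 fell, and 0 and 1 (Gdf3) of the others. Without the intensity trend 0 and 0, and 0 and 0 of the others. Over all genes, the lowest adjusted p from limma was 0.0136 with linear hours and 0.0429 without the trend. Of all genes, 201 passed with linear hours, 285 without the trend, 1326 without the 6 hour pair and 728 without the 24 hour pair, against 2168 as reported. The count was 1706 without the 12 hour pair and 1549 with the mean of all probe sets. With plain probe sets only it was 1708 of 13051 tested, with quantile normalization 2302 and with centring 2312. A gene gained or lost below is not told apart from these changes over all genes. With the mean of all probe sets 0 of the 9 genes fell, and 3 of the others rose and 1 fell. Quantile normalization and plain probe sets only each left 1 that rose, Lefty1, and centring on the median left 1 that fell, Foxh1. Without the 6 hour pair 1 rose and 0 fell, and 2 of the others fell. Without the 12 hour pair 1 rose and 1 fell, and 7 of the others rose, Eomes and Pcsk5 being added. With quantile normalization and with centring 6 of the others rose, Eomes being added. Without the 24 hour pair 0 and 0, and 1 (Gsc) and 2 (Gdf3 and Trim33) of the others. Gsc, which entered the test only through its DKK + dox arrays, is part of every count above 0 of other genes that rose. The causes were not tested. At a threshold of 1.5-fold 1 gene (Foxh1) was counted at 24 hours, against 0 at 2-fold. Of all genes called, 56.6 percent rose as reported, 50.8 percent after quantile normalization and 59 percent with centring. The arrays of each time were paired through the block in the fit, and the labels give no replicate numbers to pair by. Signal limits Cer1 most, with intensities of 48.7 to 88.0 in DKK + dox and 54.3 to 125 in DKK against a limit of 37.2, and 1 array per condition and time limits every difference.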
